A study of Rattus norvegicus with 25 samples.

Results

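The miR-148 and miR-152 family was followed in small RNA sequenced from skeletal muscle mitochondria of rats. It holds 3 of the 764 mature miRNAs in the count table, rno-miR-148a-3p, rno-miR-148b-3p and rno-miR-152-3p, named below without the prefix for rat. They were chosen by name because they carry the same seed. Their choice also drew on values of these libraries, since miR-148a-3p had the lowest p of the tested rows between trained and sedentary rats in an earlier analysis. Levels in that contrast are therefore described without a test. 13 libraries came from endurance-trained rats, male Wistar-Kyoto animals allocated at 5 weeks of age to 4 weeks of treadmill running, 5 days in each. 12 libraries came from sedentary rats of the same strain, sex and age, which were handled alike and placed on a still treadmill for as long. In both groups mitochondria were taken with a bead kit made for mouse tissue from about 100 mg of the red portion of the gastrocnemius, a calf muscle with many oxidative fibres, and were incubated with RNase A before lysis to digest RNA outside the organelle. No library of whole muscle or of mitochondria without RNase A was analysed here, so counts cannot place a miRNA within the organelle. Each library is called by its group and title number.

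A miRNA guides the Argonaute protein to messenger RNAs mainly by pairing of its seed, the stretch near its 5′ end, so members of a family that share a seed can act on the same sites. In human and mouse cells the miR-148 and miR-152 family is known for repressing the DNA methyltransferases DNMT1 and DNMT3B, and miR-148a for repressing the LDL receptor and the cholesterol exporter ABCA1. In mouse myoblasts miR-148a has been described as favouring differentiation by acting on ROCK1, a kinase of the cytoskeleton.

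The mature sequences are shown because they define the family and show how little separates its members. All 3 were matched by name to the RefSeq table of the rat assembly GRCr8. Capitals mark the seed, bases 2 to 8 counted from the 5′ end.
miR-148a-3p: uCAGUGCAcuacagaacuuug
miR-148b-3p: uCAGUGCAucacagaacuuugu
miR-152-3p: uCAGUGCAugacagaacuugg
The seed CAGUGCA was found in these 3 and in no other of the rat mature miRNAs in that table. Over the 21 positions that all members share, miR-148a-3p and miR-148b-3p were identical at 19, with the substitutions C9U and U10C (base of miR-148a-3p first). miR-148a-3p and miR-152-3p were identical at 18, with C9U, U10G and U20G. miR-148b-3p and miR-152-3p were identical at 19, with C10G and U20G (base of miR-148b-3p first). The members thus differed next to the seed and near the 3′ end. miR-148b-3p is 22 bases long and the others 21. miR-130a-3p, miR-130b-3p and miR-301b-3p carry bases 3 to 8 of the members as their own bases 2 to 7, and each had 0 counts in all libraries.

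In the same assembly the precursor of miR-152 lies within Copz2 and that of miR-148b within Copz1, genes of related coatomer subunits that act in vesicle transport. No gene surrounds the precursor of miR-148a, and 0 other genes lie within 60000 bases of it. The mature miR-148a-3p is at chr4:81664447-81664467 on the minus strand, miR-148b-3p at chr7:136299930-136299951 on the plus strand and miR-152-3p at chr10:82329435-82329455 on the plus strand. The hairpin of miR-148a is shown for its arms, with the 3p member in capitals.
Mir148a hairpin: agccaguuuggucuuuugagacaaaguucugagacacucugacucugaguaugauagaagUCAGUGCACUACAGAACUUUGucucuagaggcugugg

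Total counts ranged from 26793 to 202388 in trained and from 12181 to 186006 in sedentary libraries. These are shallow libraries, and intervals given below cover counting error only, since reads amplified by PCR are not independent molecules. There are as many libraries as rats in each group, and the labels give neither litter nor batch. The labelled tissue was checked by 6 skeletal muscle markers, of which 5 had a count, miR-208b-3p being at 0. Together they took 11.0% to 27.1% of counts in trained libraries (median 23.6%) and 9.15% to 32.5% in sedentary ones (median 16.4%). Markers of other cells were present too. The erythrocyte list had a count for 2 of 4 members and summed to 1.01% to 5.27% of counts in trained and 1.00% to 4.75% in sedentary libraries, with miR-451-5p and miR-144-3p at 0. The smooth muscle list had 3 of 3 members and summed to 0.805% to 3.41% in trained and 0.828% to 5.49% in sedentary libraries. The connective tissue list had 4 of 4 members and summed to 0.0531% to 0.870% in trained and 0.0161% to 1.61% in sedentary libraries. The endothelial list had 3 of 4, with miR-126a-5p at 0, and summed to 0.161% to 1.11% in trained and 0.256% to 1.92% in sedentary libraries. The leukocyte list had 3 of 6, with 0 counts of miR-155-5p, miR-142-3p and miR-223-3p, and summed to 0% to 0.419% in trained and 0.00131% to 0.517% in sedentary libraries. The liver marker miR-122-5p took 0% to 0.560% in trained and 0% to 0.429% in sedentary libraries. Trained medians were below sedentary ones for the erythrocyte (1.70% against 3.10%), smooth muscle (2.42% against 3.22%) and endothelial lists (0.561% against 0.641%). The same held for the leukocyte list (0.115% against 0.258%) and the liver marker (0.00245% against 0.00468%). For connective tissue the trained median was higher (0.450% against 0.391%). The ranges of each list overlapped between the groups, and the part of these cells in the results on the family was not tested. In such bulk samples fewer cells of a type and less RNA per cell cannot be told apart.

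The first question was how much of each member the preparations held. The family took 3.11% ± 1.24 of all counts (SD, n = 25), or 69582 counts in total, and miR-148a-3p made up 85.6% of them, miR-152-3p 14.2% and miR-148b-3p 0.231%. miR-148a-3p was thus the main carrier of this seed in the mitochondrial preparations, miR-152-3p a smaller one, and miR-148b-3p nearly absent from the table. The totals include 16 rows whose counts nearly equal those of another row, so shares of counts given here are on the low side if those rows repeat reads. With these rows left out of the total, the mean share was 3.32% for miR-148a-3p and 0.607% for miR-152-3p.

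miR-148a-3p had a count in 25 of 25 libraries and averaged 2.61% ± 1.28 of counts (SD, n = 25). Its share was 1.28% at the lowest, 2.56% at the median and 5.57% at the highest among trained libraries. Among sedentary libraries it was 0.575% at the lowest, 2.40% at the median and 3.50% at the highest. It ranked between 4th and 22nd of all rows within a library, with near-identical rows ranked separately. The trained libraries 17, 18, 21 and 26 lay above every sedentary library, the sedentary libraries 11, 12 and 29 lay below every trained one, and the remaining libraries of the groups overlapped.

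miR-152-3p also had a count in all 25 libraries but reached 10 counts in 23, and averaged 0.486% ± 0.323 of counts (SD, n = 25). In trained libraries its share was 0.00176% at the lowest, 0.332% at the median and 0.654% at the highest. In sedentary libraries it was 0.0410% at the lowest, 0.530% at the median and 1.43% at the highest. 3 sedentary libraries lay above every trained one, and the other libraries overlapped apart from single low values. The lowest value in each group stood far from the rest. Trained library 21 had 3 counts of miR-152-3p among 170233 (exact binomial 95% interval 0.000363% to 0.00515%), where the median share would give 806. Sedentary library 19, the shallowest of all, had 5 counts among 12181 (0.0133% to 0.0958%), where the median share would give 57.7. Of the 24 other rows whose median share was at least that of miR-152-3p, near-identical rows counted once, 0 had 5 or fewer counts in either of these libraries.

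miR-148b-3p had a count in 4 libraries, 24 in trained library 6, 1 in trained library 17, 135 in trained library 27 and 1 in sedentary library 7. In the other 21 libraries it was at 0. Trained library 27 alone held 83.9% of its 161 counts. Set against miR-148a-3p, the most abundant member, the 2 libraries with over 10 counts gave much the same proportion. miR-148b-3p was 2.64% of the sum of both in trained library 27 (exact binomial 95% interval 2.22% to 3.11%) and 2.50% in trained library 6 (1.61% to 3.69%). In the libraries at 0, a count of 0 allowed a proportion of up to 0.0371% to 0.958% of the sum, below both of those lower bounds in 21 of 21 libraries.

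**Figure D1:**
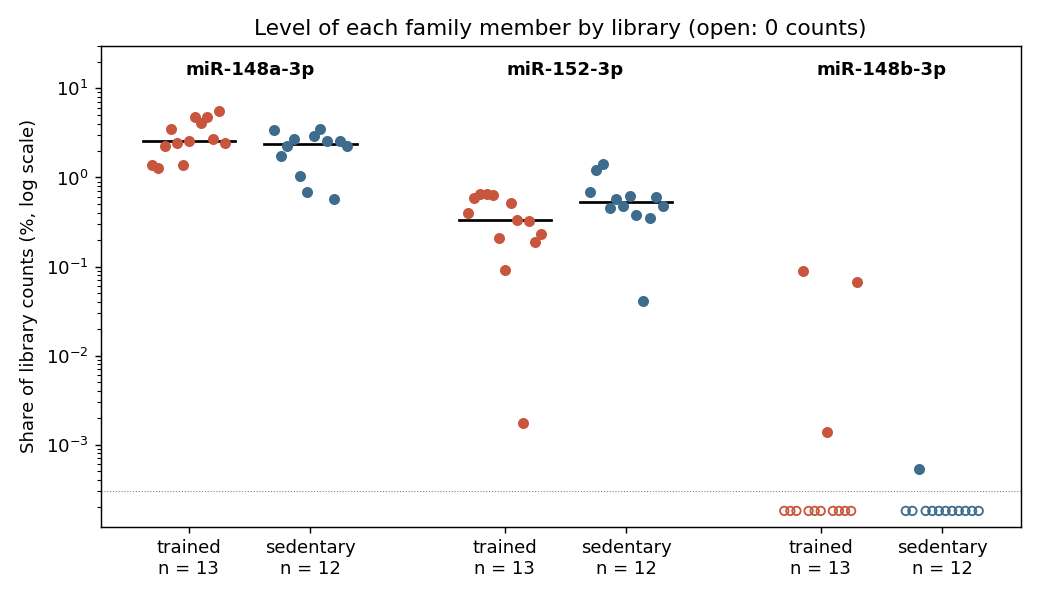
Share of library counts (%, log axis) of each member in trained (left of each pair) and sedentary libraries. Points are libraries in order of title number, lines are group medians, and open circles under the dotted line are libraries with 0 counts. miR-148a-3p lies between 0.575% and 5.57%, miR-152-3p mostly below it with 1 low library in each group, and miR-148b-3p has a count in 4 libraries.

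The order of the levels was the same in every library. miR-148a-3p exceeded miR-152-3p in 25 of 25 libraries, by a mean of 2.78 on the log2 scale (SD 2.23, n = 25, with 0.5 added to each count), and miR-152-3p exceeded miR-148b-3p in 25 of 25 by 8.12 (SD 2.56). For miR-148a-3p over miR-152-3p a two-sided permutation test that flips signs over libraries gave an adjusted p of 1e-05 over the 3 pairs of members, the smallest that 100000 resamples can give. Since members and tests were chosen with earlier results of these data known, this p describes the libraries and is no independent evidence. No p is given for the pairs with miR-148b-3p, since its 21 libraries at 0 fix the sign, and the distance depends on the 0.5 added there. In summed counts miR-148a-3p stood 6.02-fold above miR-152-3p and 370-fold above miR-148b-3p. Counts of different miRNAs also depend on how well each sequence ligates to the adapters, which was not measured.

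The second question was how the balance of miR-148a-3p against miR-152-3p varied from rat to rat. The ratio of their counts ranged from 2.18 in trained library 2 to 2697 in trained library 21, with a median of 8.24 over the 13 trained libraries. In the 12 sedentary libraries it ranged from 1.41 in library 4 to 62.6 in library 19, with a median of 4.43. The 2 highest ratios of the series are those of the libraries with 3 and 5 counts of miR-152-3p, and their intervals are wide, from 922 to 13079 in trained library 21 and from 26.5 to 194 in sedentary library 19 (exact binomial, 95%). Next came trained libraries 26 and 14, at 29.4 and 28.3, and these rest on 260 and 111 counts of miR-152-3p.

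The spread of this ratio between rats was set against counting error alone, which for PCR-amplified reads is a low bar. The chi-square of the share of miR-148a-3p among both over the 25 libraries was 355 per degree of freedom, and 284 without trained library 21 and sedentary library 19. Intervals of many single libraries overlapped, as those of sedentary libraries 3, 15, 30 and 32 or of trained libraries 1, 5 and 10. The lowest ratios in sedentary rats all had intervals above equal counts. They were those of library 4 (1.41, interval 1.24 to 1.62), library 12 (1.46, 1.28 to 1.68), library 7 (1.56, 1.48 to 1.64), library 29 (1.65, 1.41 to 1.93) and library 11 (1.81, 1.60 to 2.05). The other sedentary libraries lay at 4.24 or above. No trained library was below 2.18.

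**Figure D2:**
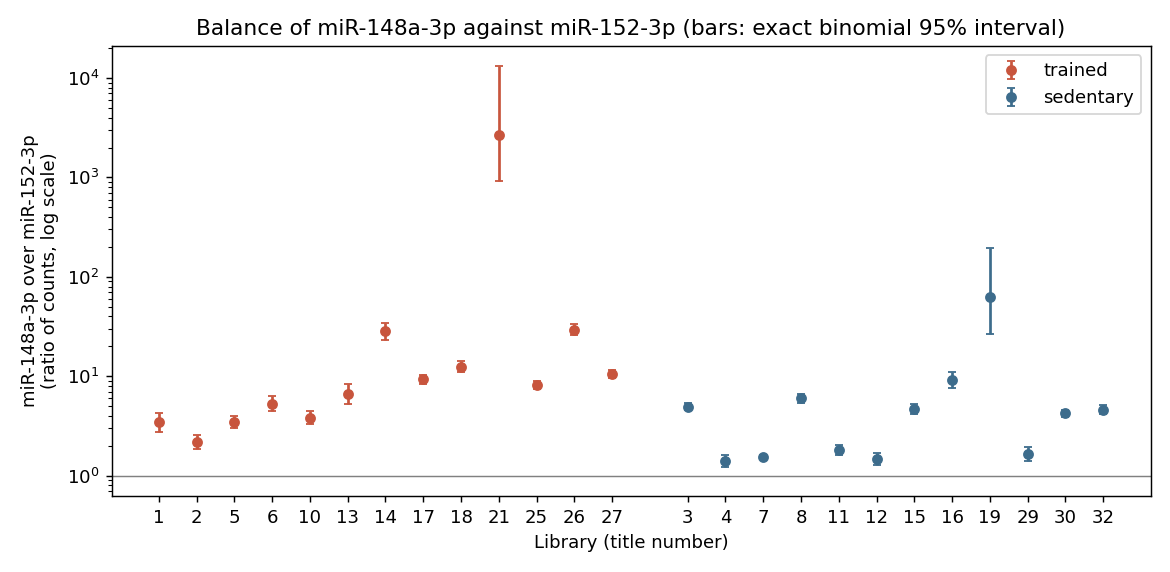
Ratio of miR-148a-3p to miR-152-3p counts (log axis) in each library, trained on the left and sedentary on the right, in order of title number. Bars are exact binomial 95% intervals and the grey line marks equal counts. Trained libraries 14 and above sit at 8.24 or higher, while trained libraries 1 to 13 and most sedentary libraries lie below.

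On the log2 scale the balance averaged 3.53 ± 2.56 in trained libraries (SD, n = 13) and 1.97 ± 1.53 in sedentary libraries (SD, n = 12), a difference of 1.56. Without trained library 21 and sedentary library 19 the means were 2.90 ± 1.18 (n = 12) and 1.62 ± 0.98 (n = 11), a difference of 1.27. Without trained library 21 alone the difference was 0.92. The groups overlapped, since 9 of 13 trained libraries lay above the sedentary median and 2 of 12 sedentary libraries lay above the trained median.

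Within the trained group the libraries fell into 2 sets that the title number also separates. Trained libraries 1 to 13 had total counts of 26793 to 43510 and ratios of 2.18 to 6.63 (median 3.66, n = 6). Trained libraries 14 to 27 had total counts of 72553 to 202388 and ratios of 8.24 to 2697 (median 12.5, n = 7). The sets overlapped neither in depth nor in ratio. Sedentary libraries in the same ranges of title numbers overlapped, at 1.41 to 5.99 for numbers 1 to 13 (median 1.69, n = 6) and 1.65 to 62.6 for numbers 14 to 32 (median 4.65, n = 6). Sedentary library 7, with the second-highest total of the series, had 2661 counts of miR-152-3p, the most of any library, and a ratio of 1.56. What the title number stands for is not given in the labels, and in trained rats it cannot be told apart from depth.

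Both members differed in mean between the sets of trained libraries, with overlapping ranges. miR-148a-3p took 3.86% ± 1.27 of counts in trained libraries 14 to 27 (SD, n = 7) and 2.03% ± 0.860 in trained libraries 1 to 13 (SD, n = 6). miR-152-3p took 0.241% ± 0.170 in trained libraries 14 to 27 and 0.521% ± 0.179 in trained libraries 1 to 13. In sedentary libraries miR-148a-3p took 2.39% ± 0.988 at numbers 14 to 32 and 1.96% ± 1.02 at numbers 1 to 13 (SD, n = 6 each). miR-152-3p took 0.414% ± 0.215 and 0.806% ± 0.416 there, again lower at the higher numbers, within spreads that overlap.

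Depth was then compared with each measure over all libraries, in a family of 4 correlations on log2 scales with permutation p-values of 100000 resamples. Unless named otherwise, levels in this and the next paragraph are relative to a library total scaled by TMM, a trimmed mean of ratios between libraries. The family had been picked with a dependence on depth in view, so these p-values describe the libraries and are no independent evidence. The level of miR-148a-3p correlated weakly with the total count (Pearson r = 0.39, permutation p = 0.0553, adjusted p = 0.188; Spearman rho = 0.39, permutation p = 0.0575, adjusted p = 0.23, n = 25). Without sedentary library 19 and trained library 27, the libraries farthest from the median total, r was 0.43 (permutation p = 0.0402, adjusted p = 0.0805). For the level of miR-152-3p with depth no relation passed the threshold (r = -0.046, permutation p = 0.832, adjusted p = 0.832; rho = -0.044, permutation p = 0.834, adjusted p = 0.834), nor without these libraries (r = -0.30, permutation p = 0.176, adjusted p = 0.234). For the balance of both, r was 0.20 (permutation p = 0.339, adjusted p = 0.453), rho was 0.26 (permutation p = 0.216, adjusted p = 0.432), and r was 0.41 without the same libraries (permutation p = 0.0376, adjusted p = 0.0805). The values for levels depend on the scaling. As shares of the plain library total, miR-148a-3p had r = 0.21 and rho = 0.22 with depth over all libraries (permutation p = 0.324 and 0.289). miR-152-3p had r = -0.15 and rho = -0.25 on that scale (permutation p = 0.48 and 0.234).

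Within each set of trained libraries no relation with depth passed the threshold. With so few libraries, each set over part of the range of totals, only a strong relation could have passed, so its absence is not read from this. For the balance with the total count, r was 0.11 and rho 0.31 in the 6 shallow trained libraries (exact permutation p = 0.822 and 0.564), and r was 0.34 and rho 0.18 in the 7 deep ones (exact permutation p = 0.511 and 0.713). For the level of miR-148a-3p, r was -0.15 and rho -0.086 in the shallow set (exact permutation p = 0.806 and 0.919), and r was -0.27 and rho -0.29 in the deep set (exact permutation p = 0.528 and 0.556). No pooled value over the trained libraries is given here because they fall into these sets. In the 12 sedentary libraries the level of miR-148a-3p had r = -0.039 (permutation p = 0.908) and rho = 0.056 (permutation p = 0.868) with depth. Their level of miR-152-3p had r = 0.69 (permutation p = 0.0268, adjusted p = 0.0876) but rho = 0.27 (permutation p = 0.394), and r was 0.63 without libraries 19 and 4 (permutation p = 0.0515). Their balance had r = -0.62 (permutation p = 0.0438, adjusted p = 0.0876) but rho = -0.19 (permutation p = 0.558), and r was -0.40 without these libraries (permutation p = 0.264). Sedentary library 19, with 5 counts of miR-152-3p, is the shallowest. miR-148a-3p and miR-152-3p were not seen to vary together, with r = -0.34 (permutation p = 0.0941, adjusted p = 0.188) and rho = -0.069 (permutation p = 0.741, adjusted p = 0.834) over 25 libraries. Without trained libraries 17 and 21 r was -0.12 (permutation p = 0.605, adjusted p = 0.605). Within groups rho was -0.088 in trained (n = 13, permutation p = 0.778) and 0.20 in sedentary libraries (n = 12, permutation p = 0.527). Both levels share the library total.

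**Figure D3:**
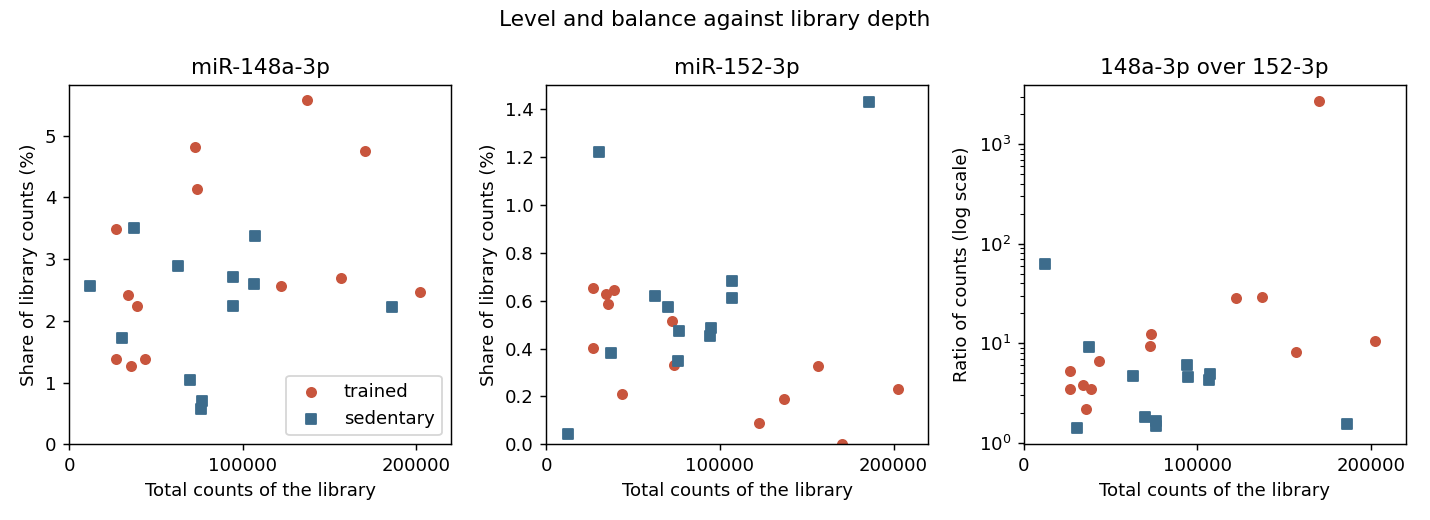
Share of library counts of miR-148a-3p and miR-152-3p (%) and the ratio of their counts (log axis) against the total count of the library. Circles are trained and squares sedentary libraries. The 6 shallow trained libraries have ratios of 2.18 to 6.63 and the 7 deep ones 8.24 to 2697, while sedentary libraries span 1.41 to 62.6 with the highest in the shallowest.

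The third question was the difference between trained and sedentary rats, given here as a description because the members were chosen with it known. miR-148a-3p averaged 35431 ± 21609 CPM in trained rats (SD, n = 13), the count relative to a library total scaled by TMM, a trimmed mean of ratios between libraries, and 20064 ± 11024 in sedentary rats (SD, n = 12). On that scale 4 trained libraries lay above every sedentary library and 2 sedentary libraries below every trained one. Its log2 fold change, trained minus sedentary, was 0.82 (SE 0.32). miR-152-3p averaged 3666 ± 1894 in trained rats and 5808 ± 3696 in sedentary rats, with a log2 fold change of -0.67 (SE 0.49). The members with a tested row thus had values of opposite sign. Of the 76 rows tested, 2 had a higher value than miR-148a-3p and 15 a lower value than miR-152-3p, and the median was -0.0080.

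As background to these values, the edgeR quasi-likelihood test called 0 of the 76 rows at a Benjamini-Hochberg adjusted p under 0.05, that is 0%, and 1 row had an unadjusted p under 0.05. That row is the one by which the family was chosen, and nothing is read from it. limma-voom put miR-152-3p at -1.35 (SE 0.60). DESeq2 and limma-voom also called 0, with 8 of 260 and 14 of 76 rows at an unadjusted p under 0.05, and limma-trend called 0 with 8 of 76. The sign of each member was the same under every scaling tried. With DESeq2 size factors miR-148a-3p was at 0.79 and miR-152-3p at -0.65, beside a median of -0.16 over all tested rows. With total counts only they were at 0.47 and -0.72, beside a median of -0.29. miR-148b-3p did not pass the filter on low counts. It had 160 counts over the trained and 1 over the sedentary libraries, a ratio of 134 per total count with a counting interval of 23.7 to 5317 (exact, 95%), but without trained libraries 6 and 27 the trained sum was 1. The fit without a filter, which called 66 of 260 rows (25.4%), put it at 5.92 (SE 1.98), a value that rests on those 2 libraries.

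The difference in miR-148a-3p was not even over the libraries. Among title numbers 1 to 13 it averaged 16889 ± 5587 CPM in trained (n = 6) and 19149 ± 11456 in sedentary rats (n = 6), and the log2 fold change was -0.034 (SE 0.35). Among numbers 14 to 32 it averaged 51324 ± 16412 in trained (n = 7) and 20979 ± 11581 in sedentary rats (n = 6), with a log2 fold change of 1.25 (SE 0.43). Sedentary rats were thus at a like level in both ranges and trained rats were not.

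A split by depth, which largely follows the title number in trained rats, gave values of the same order. In libraries with a total below the median of 73449 the level was 23334 ± 17800 in trained (n = 7) and 21603 ± 12817 in sedentary rats (n = 5), and the fitted value was -0.18 (SE 0.43). At or above the median the level was 49543 ± 17222 in trained (n = 6) and 18965 ± 10483 in sedentary rats (n = 7), and the fitted value was 1.47 (SE 0.42). That fit called 4 of 80 rows (5%), with miR-148a-3p among them beside miR-1-3p at 1.35 (SE 0.40), miR-3571, whose counts nearly equal those of miR-1-3p, at 1.35 (SE 0.40), and miR-106b-3p at -7.82 (SE 2.20). These rows are named after their values were seen, and nothing is read from the call on miR-148a-3p, which chose the family. The fit below the median called 0 of 88 rows (0%), with 2 at an unadjusted p under 0.05 by edgeR, the only tool run on that split.

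In a joint edgeR fit of all libraries with depth as a term, the difference in miR-148a-3p changed by 0.67 (SE 0.28) for each doubling of the total count, beside a median change of -0.25 over the 76 rows. Scaled by total counts only, the same term was 0.37 (SE 0.26), beside a median of -0.51. In the fit with TMM the level in sedentary rats changed by 0.0029 (SE 0.20) per doubling. For miR-152-3p the change of the difference was -0.87 (SE 0.52) with TMM and -1.15 (SE 0.52) with total counts only, and it was -0.25 (SE 0.47) without trained library 21 and sedentary library 19, where that of miR-148a-3p was 0.55 (SE 0.39). With depth as a plain covariate the difference in miR-148a-3p was 0.66 (SE 0.31), and with the title number as covariate 0.71 (SE 0.32). Values for miR-152-3p stayed negative in each of these fits, at -0.68 (SE 0.40) for numbers 1 to 13, -0.41 (SE 0.93) for numbers 14 to 32, -0.36 (SE 0.61) below and -1.22 (SE 0.81) at or above the median total.

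**Figure D4:**
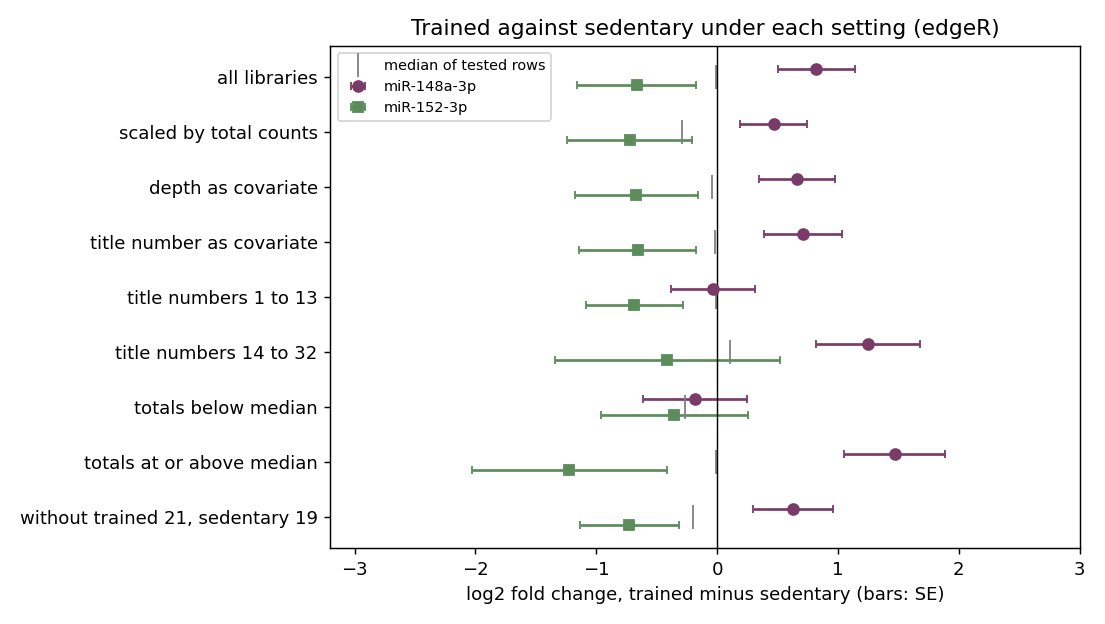
Log2 fold change, trained minus sedentary, of miR-148a-3p (circles) and miR-152-3p (squares) from edgeR fits over all tested rows, with SE as bars and the median of the tested rows as a grey tick. miR-148a-3p lies near 0 among title numbers 1 to 13 and below the median total, and at 1.25 and 1.47 in the complementary sets, while miR-152-3p is negative throughout.

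The opposite arms of the precursors are the strands that are usually degraded. miR-148a-5p and miR-148b-5p had 0 counts in all 25 libraries, which allows up to 1.43 CPM over the 2094773 counts of the series. Against 59528 counts of miR-148a-3p, its 3p arm held at least 99.99% of the counts of that precursor (lower exact binomial 95% bound). miR-152-5p was the exception, with 240 counts against 9893 of miR-152-3p, so that the 3p arm held 97.6% (exact binomial 95% interval 97.3% to 97.9%).
miR-148a-5p: aaaguucugagacacucugacuc
miR-152-5p: agguucugugauacacuccgacu
Of the 240 counts, 224 came from trained library 21 and 16 from sedentary libraries 3, 11 and 30, with 14, 1 and 1. In trained library 21 the 3p arm, at 3 counts, was 1.32% of both arms (0.273% to 3.81%), and over the other 24 libraries it was 99.8%. The library with the lowest level of miR-152-3p was thus the library with the highest count of its other arm, and the sum of both arms there, 227 counts, was still under the 806 that the median share of the 3p arm would give.

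The spread of both members between libraries was below the median of the tested rows. The SD of the log2 level over 25 libraries was 0.96 for miR-148a-3p, the 19th lowest of the 76 tested rows, and 1.72 for miR-152-3p, the 30th lowest, beside a median of 2.35. By mean level they ranked 11th and 31st of these rows, and abundant rows vary less by counting alone. The edgeR tagwise dispersion, which measures spread within the groups beyond counting error, was 0.46 for miR-148a-3p and 0.89 for miR-152-3p, beside a median of 1.42. These were the 11th and 30th lowest of the 76 rows.

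The rows whose level followed each member most closely were ranked by Spearman's rho over the 25 libraries, among 66 other tested rows with near-identical ones counted once. For miR-148a-3p they were miR-128-3p, best known from brain and also expressed in muscle (rho = 0.59), miR-1-3p, the muscle-specific miRNA (0.50), let-7a-5p (0.50), let-7i-5p (0.48) and let-7f-5p (0.43), beside a median of -0.090 over the 66 rows. For miR-152-3p they were miR-125b-5p (0.54), miR-378b (0.47), miR-320-3p (0.47), miR-3557-5p (0.47) and miR-125a-5p (0.42), beside a median of 0.13. miR-3557-5p nearly equals miR-378a-3p in counts, and miR-378b is close to it with 6.59% ± 2.40 of counts beside 6.81% ± 2.43 (SD, n = 25). The 2 sets held no row in common, but each holds only 5 of 66 rows, so nothing is read from that. These are descriptions of libraries that share their totals and scaling.

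Other miRNAs of the processes named above were listed for comparison, with 0 calls in either direction in each list. Of 3 miR-29 members, which also act on DNA methyltransferase messenger RNAs, 2 had a count and 0 were tested. Of 15 miRNAs described in myoblast differentiation, 13 had a count and 10 were tested, 8 with positive and 2 with negative values and a median of 0.19. The nearly equal rows miR-133a-3p and miR-133b-3p are both among the positive ones. miR-1-3p, the most abundant of them, was at 12.0% ± 3.85 in trained and 9.15% ± 4.06 in sedentary libraries (SD, n = 13 and 12) with a log2 fold change of 0.60 (SE 0.36, edgeR adjusted p = 0.916), and miR-206-3p, a skeletal muscle miRNA, was at 0.30 (SE 0.38, edgeR adjusted p = 0.971). Of 7 miRNAs described as acting on cholesterol export or the LDL receptor, 5 had a count and 3 were tested, all with positive values and a median of 0.45. Among these miR-26a-5p was at 0.21 (SE 0.37, edgeR adjusted p = 0.971) and miR-128-3p at 0.45 (SE 0.47, edgeR adjusted p = 0.953). All 3 tested rows of this list are also in the myoblast list, so the lists are not independent. The median over all 76 tested rows was -0.0080. Among the abundant tested markers of other cells, miR-486 of red cells and muscle was at -0.34 (SE 0.29), miR-143-3p of smooth muscle at -0.098 (SE 0.26), miR-126a-3p of endothelium at -0.040 (SE 0.39), miR-146a-5p of leukocytes at -0.55 (SE 0.89) and, of connective tissue, miR-199a-3p at 0.81 (SE 0.64) and the broadly expressed miR-21-5p at -1.25 (SE 1.04), with edgeR adjusted p of 0.916 to 0.999.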

How the data were processed

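The authors deposited raw read counts per mature miRNA, with empty cells that are 0 in their normalized table and were read as 0, and a normalized signal in which each column is its counts over a constant. fastp 0.20.0 and DESeq2 1.36 are the tools in the submitters' processing notes. Which aligner, build and annotation gave the counts, and how reads with several matches were treated, are points not given in the sources used here. Per the labels' protocols, libraries had 20 PCR cycles and no molecular identifiers are named.

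Counts were fitted with edgeR 4.0.16 (R 4.3.3, TMM, filterByExpr with minimum count 10 and total 15, Benjamini-Hochberg), without covariates. The SE is the log2 fold change over the root of its F. Alternatives used limma 3.58.1, DESeq2 1.42.0, other scalings and filters. The edgeR fit was tried on simulated counts with known folds that did not vary with depth, and no result given here rests on that trial. Ratios added 0.5 to each count. Permutation tests were two-sided with 100000 resamples, or exact (numpy 2.4.6, scipy 1.17.1). Sequences and neighbouring genes came from RefSeq (GRCr8).

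The members, lists and tests were chosen with earlier results of these data known. Named miRNAs were the members, their other arms, the 5 rows most like miR-148a-3p and miR-152-3p, and the 2 most abundant tested rows of each list. Libraries were counted as replicates, so p-values rest on the variation between them.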

Additional observations from a re-analysis of the deposited data

Results flagged for a closer look

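miR-152-5p reached 224 counts in trained library 21, in a row outside the tested comparisons, against at most 14 in a sedentary library. It had 0 counts in the other 12 trained libraries. Of 46 pairs of arms with at least 10 counts in trained library 21, 4 had another major arm there than over the other 24 libraries, those of miR-152, miR-30a, miR-1843a and miR-1843b, named after their values were seen. For miR-30a the 3p arm was 83.9% in trained library 21 and 46.8% in the others.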

How the results depend on the processing

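No paired analysis was made because the labels name no pairs of trained and sedentary rats, which also share no title number. The settings that leave out trained library 21 and sedentary library 19, or take sets of trained libraries apart, were chosen after seeing the data. With each library left out in turn, the log2 fold change of miR-148a-3p was 0.63 to 1.01, that of miR-152-3p -0.77 to -0.44 and that of miR-148b-3p 4.94 to 6.21, 0 rows were called, and the balance of miR-148a-3p against miR-152-3p differed between groups by 0.92 to 1.91. miR-148a-3p was at -0.18 below the median total. miR-148b-3p was at 1.42 with limma-voom and 0.86 with limma-trend, and could not be fitted with 10 counts in at least 12 libraries. The change of the difference in miR-148a-3p per doubling of depth was 0.56 to 0.76 with each library left out and 0.37 with total counts only, a fit in which 5 of 76 rows were called. Calls came to 66 with no filter and 4 at or above the median total. With at least 10 counts of both rows, miR-148a-3p over miR-148b-3p was 5.23 and miR-152-3p over miR-148b-3p 2.32, from 2 libraries (exact permutation p = 0.5, the smallest possible). miR-148a-3p over miR-148b-3p was 8.53 from summed counts. The cause of these shifts was not tested, except that fewer libraries or added counts enter by construction. Spearman's rho with depth among trained libraries was 0.70 for miR-148a-3p (permutation adjusted p = 0.0199, and rho 0.72 without trained libraries 27 and 1). It was 0.81 for the balance (permutation adjusted p = 0.0048, and rho 0.83 without them) and -0.42 for miR-152-3p (permutation adjusted p = 0.204). With levels as shares of the library total it was 0.49 for miR-148a-3p (permutation adjusted p = 0.118) and -0.75 for miR-152-3p (permutation adjusted p = 0.00944). Since the family was picked with a dependence on depth in view, these p-values are no independent evidence. All of these rho values join the shallow and the deep set. Inside these sets rho for miR-148a-3p was -0.086 and -0.29. Among sedentary libraries it was 0.27 for miR-152-3p and -0.19 for the balance (0.28 and -0.26 without libraries 19 and 4). Between miR-148a-3p and miR-152-3p rho was 0.20 among sedentary libraries (0.15 without libraries 11 and 12) and 0.073 without trained library 21 and sedentary library 19. A count of 0 in a single library allowed 14.8 to 246 CPM.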
